A study of Mus musculus with 4 samples.

Results

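The 9 genes described here belong to the peroxisome proliferator-activated receptor (PPAR) system and to the use of fatty acids, and are 9 of the 35963 genes in the plate tables outside spike-ins and mitochondrial genes. They are the nuclear receptors Pparg and Ppara, the secreted lipase inhibitor Angptl4, the pyruvate dehydrogenase kinase Pdk4, the carnitine palmitoyltransferase Cpt1a, the acyl-CoA dehydrogenases Acadl and Acadm, the fatty acid binding protein Fabp7 and the lipid droplet coat protein Plin2. They were picked by symbol with their levels by cell type and on fed and fasted plates already known, so both kinds of value are given as a description. No p-value of a member is printed, and where a member is said to pass the threshold of a fit, this too is description. All 9 symbols were found.

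Single cells were sorted from the hypothalamus of C57BL/6 mice carrying Lepr-cre;Rosa-LSL-tdTomato and profiled by CEL-seq2, which counts 3' ends of transcripts with unique molecular identifiers (UMIs). In these mice Cre is made where the leptin receptor gene Lepr is active, and the tdTomato mark persists afterwards, so a sorted cell need not hold Lepr RNA. There were 3 plates of 384 wells from fed mice, called fed plates 1, 2 and 3, and 1 plate (plate 5 of the series) from mice that had gone 24 h without food, called the fasted plate. All groups share the genotype and strain, and the labels used here give no sex, age or number of animals behind a plate. With 1 fasted plate, fasting and plate cannot be told apart in any value below, and spread between fed plates may be technical.

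After wells under 1000 transcripts or with at least 30% mitochondrial transcripts were left out, 1279 of 1536 wells remained, 356, 322 and 331 of them fed and 270 fasted, with 4398233 to 5529965 transcripts a plate and medians of 7750 to 13507 transcripts a cell. Clustering gave 25 clusters, of which markers named 13 classes, with 86 cells left unnamed. Lepr transcripts were found in 22.7 to 25.4% of the cells of a plate. In tanycyte-like cells they were found in 0 of 49, 2 of 73 and 3 of 70 fed cells and in 4 of 42 fasted cells. AgRP-like neurons held Lepr in 31 of 83, 35 of 59 and 17 of 29 fed cells and in 22 of 23 fasted cells, which were also deeper. Cells holding the RNA Xist and no Y-linked transcript made up 6.74, 51.6 and 42.0% of fed plates 1, 2 and 3 but 84.4% of the fasted plate, so sex also moves with the fasted plate.

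PPARs are nuclear receptors that bind fatty acids and their derivatives, pair with retinoid X receptors (RXRs) and sit on paired AGGTCA-like motifs near their target genes. Ppara is best known for switching on fatty acid oxidation in the fasted liver, and Pparg for driving lipid storage in fat cells. Angptl4, Pdk4, Cpt1a, Acadl, Acadm and Plin2 are all known PPAR targets in other tissues. Cpt1a lets long-chain fatty acids into mitochondria, Acadl and Acadm carry out the opening step of their oxidation, and Pdk4 turns off pyruvate dehydrogenase so that fat replaces glucose as fuel. Tanycytes are glia with long basal processes that border the third ventricle at its floor, and vascular and leptomeningeal cells (VLMCs) are the fibroblast-like cells of the meninges and larger vessels.

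The members lie on 8 chromosomes of GRCm38 (GENCODE vM21). Pparg lies at chr6:115360951-115490399 on the plus strand and Pdk4 on the same chromosome at chr6:5483351-5496309 on the minus strand. Ppara is at chr15:85734983-85802819, Cpt1a at chr19:3322334-3385733 and Fabp7 at chr10:57784881-57788450, all on the plus strand. On the minus strand are Angptl4 at chr17:33773750-33781830, Acadl at chr1:66830839-66863277, Acadm at chr3:153922357-153944632 and Plin2 at chr4:86648386-86670060. 8 of the 9 members matched the RefSeq promoter table (GRCm38.p6), with 10 start sites between them, and Angptl4 had no entry. The motif AGGTCA, read on both strands as AGGTCA or its reverse complement, was present in 5 of these 10 windows, each the 230 bases that begin 250 bases before a start, and in 13.0% of all 32851 such windows. The paired motif AGGNCANAGGNCA, the DNA element that PPAR and RXR bind together, was in 0 of the 10 windows and in 0.301% of all. The 4 windows below are shown because Pparg is the receptor whose values stand apart and Cpt1a, Plin2 and Acadm are target genes with a match, and because none of them overlaps an annotated exon. Each is printed 5' to 3' on the gene's strand, and capitals mark the motif or its reverse complement. They are Pparg (the third of its 3 starts, chr6:115421816-115422045, plus strand), Cpt1a (chr19:3323051-3323280, plus strand), Plin2 (chr4:86670080-86670309, minus strand) and Acadm (chr3:153944664-153944893, minus strand).
Pparg: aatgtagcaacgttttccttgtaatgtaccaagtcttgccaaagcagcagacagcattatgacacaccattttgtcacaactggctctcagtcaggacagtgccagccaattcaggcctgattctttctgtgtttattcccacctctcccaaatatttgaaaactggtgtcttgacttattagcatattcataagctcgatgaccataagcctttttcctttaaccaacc
Cpt1a: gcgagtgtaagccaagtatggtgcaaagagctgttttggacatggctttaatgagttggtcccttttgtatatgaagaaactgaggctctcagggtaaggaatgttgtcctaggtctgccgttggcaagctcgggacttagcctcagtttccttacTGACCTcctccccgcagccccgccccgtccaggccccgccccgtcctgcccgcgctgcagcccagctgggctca
Plin2: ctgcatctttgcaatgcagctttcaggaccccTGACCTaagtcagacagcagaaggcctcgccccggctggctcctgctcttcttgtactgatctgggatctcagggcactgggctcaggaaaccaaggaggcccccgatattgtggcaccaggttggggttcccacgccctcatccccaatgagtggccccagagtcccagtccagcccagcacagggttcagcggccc
Acadm: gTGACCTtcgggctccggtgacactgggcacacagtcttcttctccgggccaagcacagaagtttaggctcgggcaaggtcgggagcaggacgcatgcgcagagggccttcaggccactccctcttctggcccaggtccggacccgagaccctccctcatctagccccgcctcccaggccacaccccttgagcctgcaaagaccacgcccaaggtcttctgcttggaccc
The Pparg window shown holds no match, and each of the other 3 holds 1, in the reverse orientation. The window of the first Pparg start (chr6:115360894-115361123), not shown because it overlaps an annotated exon, holds 1 match in the forward orientation. A match of these letters is a description and not a shown binding site.

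**Figure D1:**
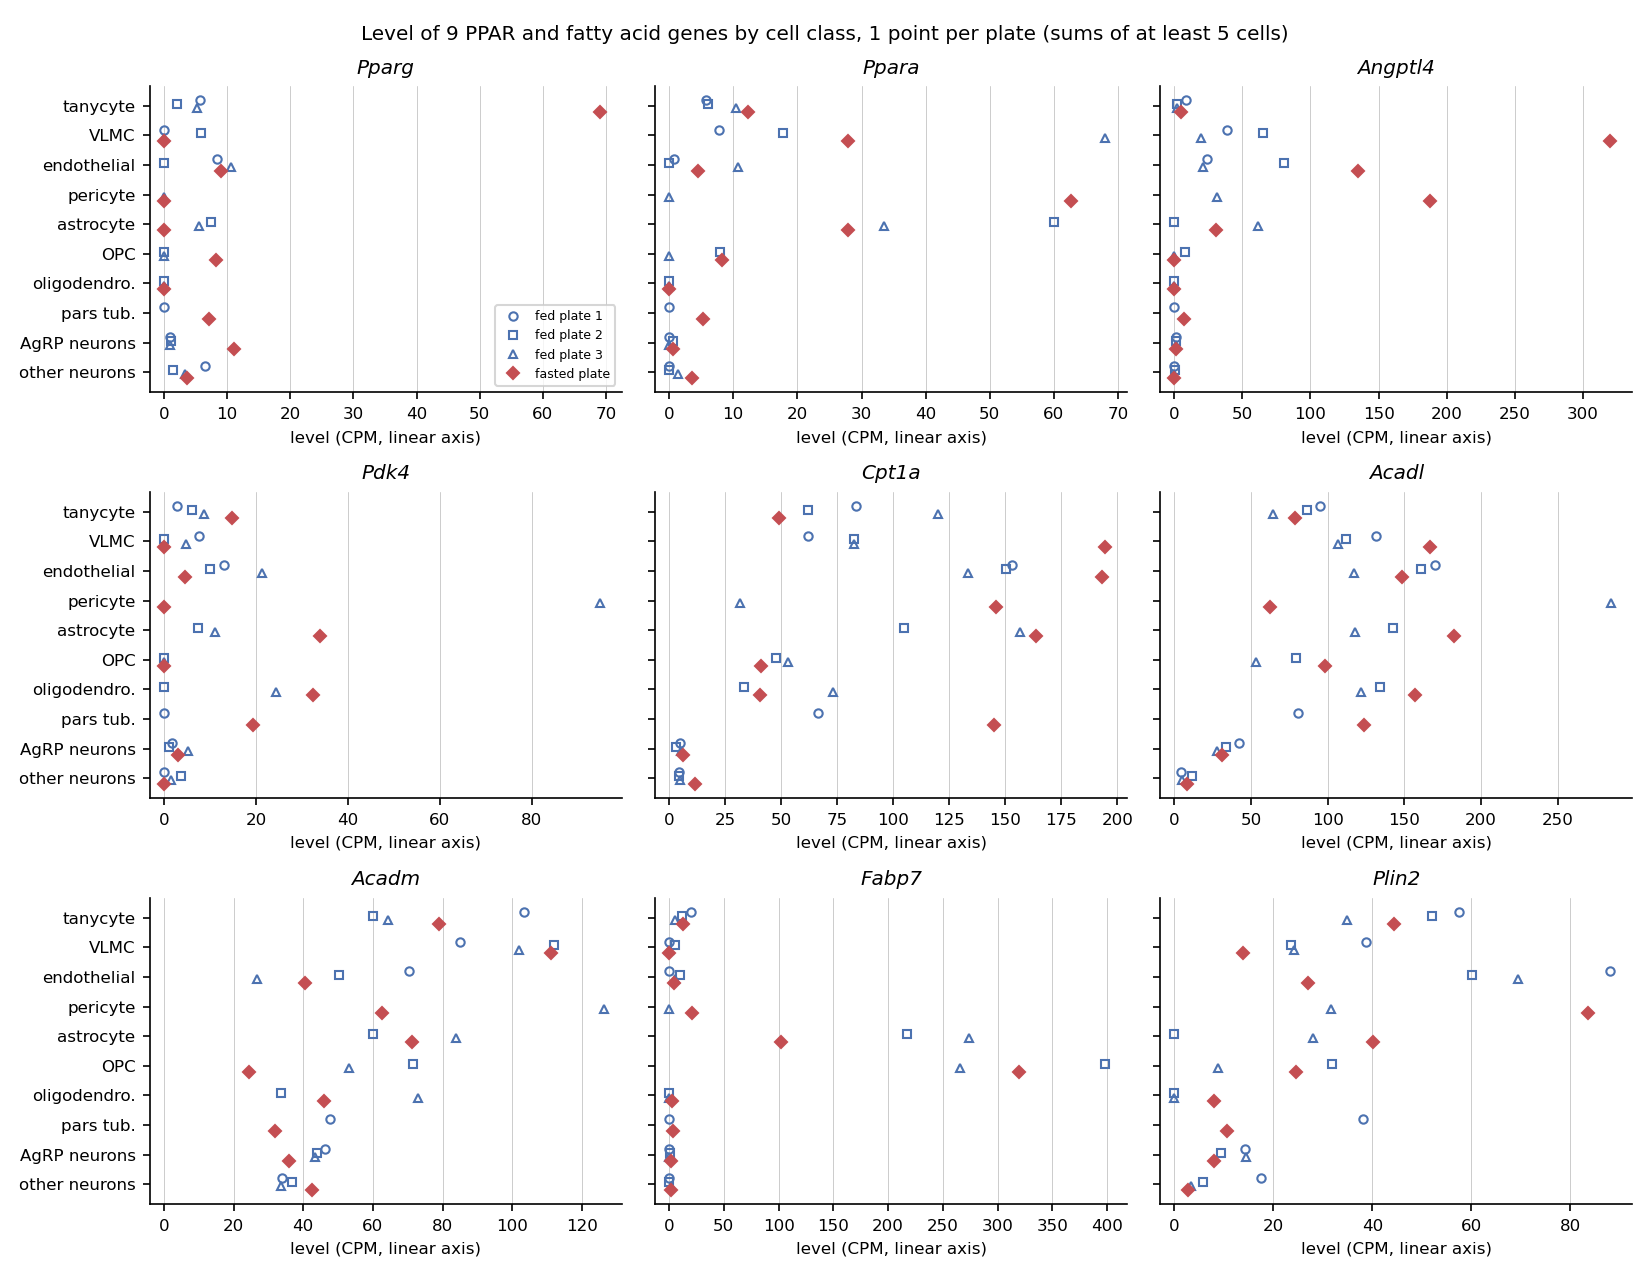
Level of each of the 9 genes in counts-per-million (CPM) of a class's transcripts (horizontal axis) by cell class (vertical axis), with 1 point per plate and at least 5 cells behind each point. Fabp7 stands high in oligodendrocyte precursor-like and astrocyte-like cells, Cpt1a is under 12 CPM in both kinds of neuron, and the fasted points of Pparg in tanycyte-like cells and of Angptl4 in VLMC-like cells sit above the fed points of the same class.

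Levels below are counts-per-million values (CPM), relative to all transcripts of a class on a plate, for sums of at least 5 cells. The receptors and Pdk4 were sparse, with 124 transcripts of Pparg in 67 of the 1279 cells, 87 of Ppara in 69, 119 of Pdk4 in 76 and 185 of Angptl4 in 105. Acadl with 1218 transcripts in 561 cells, Acadm with 986 in 569 and Cpt1a with 874 in 419 were the most often seen, followed by Plin2 with 468 in 292 and Fabp7 with 282 in 129. All values are counts from amplified cDNA, so their spread includes more than counting error.

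There were 49, 73 and 70 fed and 42 fasted tanycyte-like cells. Pparg stood at 5.75, 2.01 and 5.22 CPM fed and at 69.0 CPM fasted. The fasted plate lay above every fed plate, by 3.94 on the log2 scale (SE 0.74, n = 3 fed plates and 1 fasted plate). That level rested on 5 of 42 cells, against 2 of 49, 1 of 73 and 2 of 70 in fed plates 1 to 3.

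The tanycyte-like class holds clusters 0 and 5, and the Pparg of the fasted plate was in the second of them. In cluster 0, led by Crym, Frzb, Gpr50 and Rax, Pparg was at 6.89, 0 and 8.99 CPM fed and 3.20 CPM fasted. In cluster 5, led by Scn7a and Col25a1, it was at 4.93, 8.32 and 0 CPM fed and 290 CPM fasted. 27 of the fasted transcripts came from 4 of the 8 fasted cells of cluster 5, which held 10, 7, 3 and 7. The other 38 fasted tanycyte-like cells held 1 Pparg transcript (2.81 CPM), beside 6 in the 192 fed cells (4.22 CPM). Without those 4 cells the fasted level was inside the fed range. They were picked by holding Pparg, and no fed cell was left out, so that level is a description and no test.

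Those 4 cells, singled out after their values were seen, differed from their neighbours in several markers. None held a transcript of Rax, the homeobox gene that marks tanycytes, or of Crym, while Rax was found in 51 of the 61 fed cells of cluster 5 and in all 4 of the other fasted ones, which lacked Crym too. Col25a1 was at 60.6 CPM in them, against 3945 CPM in the other 4 fasted cells and 5127 CPM in the fed cells of that cluster. Scn7a, a sodium channel gene, was at 1192 CPM and the collagen gene Col23a1 at 2808 CPM, so part of the marker set was present. Summed over the 12 tanycyte markers they reached 8666 CPM with 4 markers at 0, against 17846 CPM in the other 4 fasted cells and 24523 CPM in the fed cells of cluster 5. The 10 astrocyte markers summed to 4626, 3441 and 3322 CPM and the 9 neuron markers to 2101, 5780 and 4246 CPM in the same 3 groups. The VLMC markers summed there to 525, 161 and 231 CPM and the AgRP neuron markers to 2000, 1330 and 1041 CPM. Ependymal markers summed to 222, 390 and 638 CPM, and the remaining sets are not given here. The 4 cells are given no other name here, and the part these markers play in the Pparg level was not tested. Depth did not set them apart, with a median of 12217.5 transcripts against 10568.5 in the other 4.

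**Figure D2:**
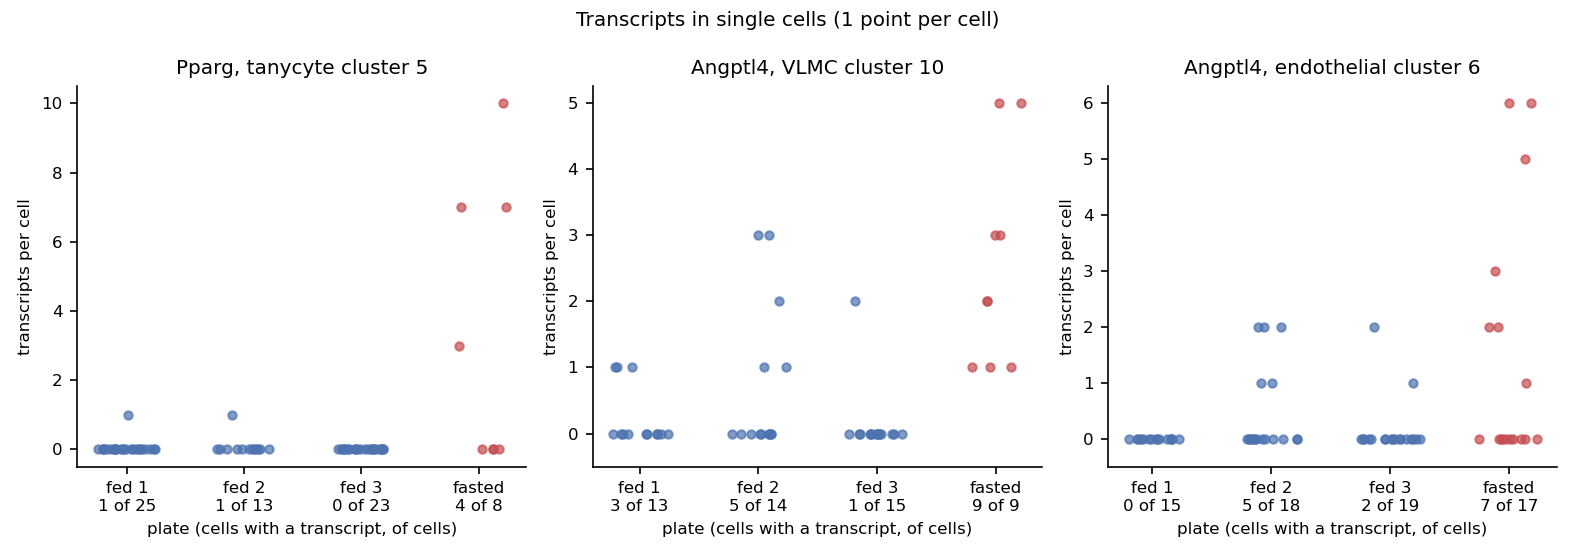
Transcripts per cell (vertical axis) of Pparg in tanycyte-like cluster 5 and of Angptl4 in VLMC-like cluster 10 and endothelial-like cluster 6, for each plate (horizontal axis), 1 point per cell. Pparg is above 2 transcripts in 4 fasted cells of cluster 5, whereas Angptl4 is found in 9 of 9 fasted cells of cluster 10.

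The lipase Lpl, which frees fatty acids from circulating triglyceride and is a known Pparg target in fat cells, moved in the same cells. Lpl was at 28.8, 70.2 and 15.7 CPM in fed and 173 CPM in fasted tanycyte-like cells. The 4 cells with Pparg held 67 Lpl transcripts (1353 CPM), all 4 of them positive, and the other 38 fasted tanycyte-like cells held 3 (8.42 CPM). In the fed tanycyte-like cells Lpl was at 38.0 CPM. The class-wide log2 difference of Lpl was 2.17 (SE 0.34) and rested on those 4 cells. In cluster 0 alone it was -2.505 (SE 0.94), and in cells holding Rax -1.90 (SE 0.77). Both rest on few fasted transcripts, 2 in cluster 0, so no fall of Lpl is read from them.

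**Figure D3:**
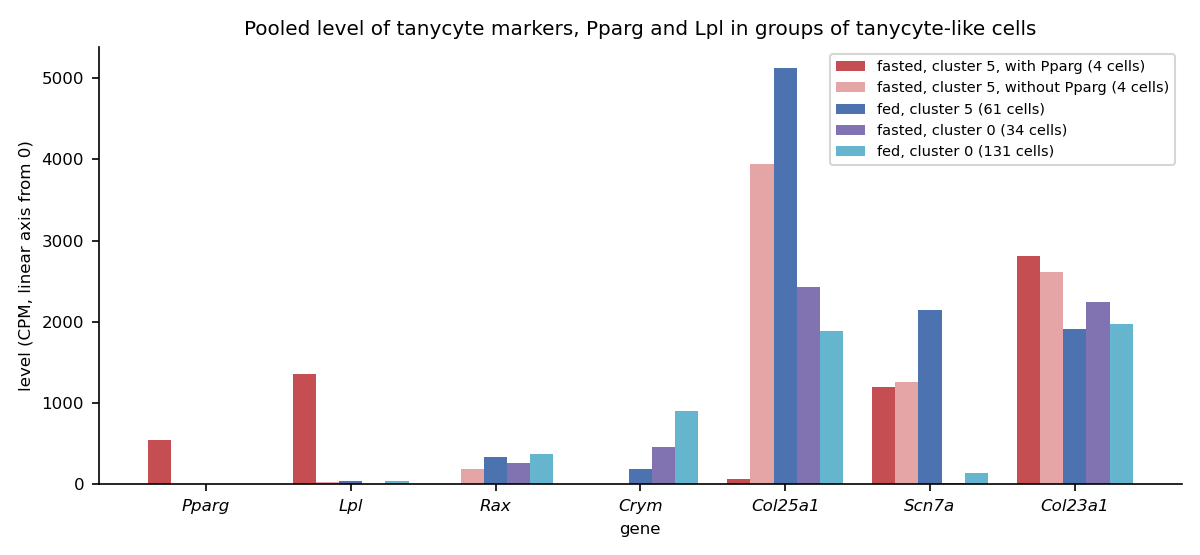
Pooled level in CPM (linear vertical axis) of Pparg, Lpl and 5 tanycyte markers in 5 sets of tanycyte-like cells, split by cluster, plate group and, in fasted cluster 5, by whether a cell held Pparg. The 4 fasted cells with Pparg are the set with Lpl at 1353 CPM, with Rax at 0, while Crym is at 0 in both sets of fasted cluster 5.

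Cpt1a, the entry enzyme for long-chain fatty acids, was at 83.4, 62.2 and 120 CPM in fed tanycyte-like cells, found in 21 of 49, 23 of 73 and 33 of 70 cells. On the fasted plate it was at 49.3 CPM, in 8 of 42 cells. The fasted value lay below every fed plate, with a log2 difference of -0.86 (SE 0.40). The 2 clusters differed: cluster 0 stood at 96.5, 44.9 and 92.9 CPM fed and 19.2 CPM fasted, and cluster 5 at 74.0, 117 and 158 CPM fed and 150 CPM fasted. The lower level was thus in cluster 0, where the log2 difference was -1.93, while in cluster 5 it was 0.36.

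The remaining members differed less between fed and fasted tanycyte-like cells. Acadl was at 94.9, 86.2 and 64.4 CPM fed and 78.9 CPM fasted (log2 difference -0.03, SE 0.36). Acadm, the medium-chain dehydrogenase, was at 104, 60.2 and 64.4 CPM fed and 78.9 CPM fasted (0.09, SE 0.37), and Plin2 at 57.5, 52.1 and 34.8 CPM fed and 44.4 CPM fasted (-0.08, SE 0.45). For these 3 genes the fasted plate lay inside the fed range. Ppara at 5.75, 6.02 and 10.4 CPM fed and 12.3 CPM fasted and Pdk4 at 2.88, 6.02 and 8.70 CPM fed and 14.8 CPM fasted had the fasted plate on top, each from few transcripts. Angptl4 (8.63, 2.01 and 1.74 CPM fed, 4.93 CPM fasted) and Fabp7 (20.1, 12.03 and 5.22 CPM fed, 12.3 CPM fasted) lay within the fed range.

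Of the 9 members, 5 passed the filter on low counts in this comparison, and 1, Pparg, passed the threshold of the fit across all genes (edgeR, adjusted p under 0.05), beside 3.08% of 10409 genes, while DESeq2 gave Pparg no adjusted p. The choice of the members used this contrast, so nothing is read from that count. Several marker sums lay outside the fed range on the fasted plate in the same class. The 12 tanycyte markers summed to 25800, 26388 and 25377 CPM fed and 17417 CPM fasted, none at 0. The 8 pars tuberalis markers, of the neighbouring pituitary tissue, summed to 1291, 977 and 1174 CPM fed, with 2 to 4 of them at 0, and to 2201 CPM fasted, with none at 0. The AgRP neuron markers (1346, 1209 and 797 CPM fed, 1622 CPM fasted), the oligodendrocyte markers (339, 313 and 113 CPM fed, 446 CPM fasted) and the microglia or macrophage markers (92.0, 96.2 and 83.5 CPM fed, 148 CPM fasted) were higher too. Ependymal markers (929, 1089 and 997 CPM fed, 762 CPM fasted) and endothelial markers (428, 221 and 322 CPM fed, 190 CPM fasted) were lower, and the sums of the oligodendrocyte precursor, POMC and glutamatergic neuron markers were lower by a smaller amount. Their part in the members' values was not tested.

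There were 27, 31 and 31 fed and 13 fasted VLMC-like cells. Angptl4, which is released under fasting from fat and liver and restrains lipoprotein lipase, was at 38.7, 64.9 and 19.4 CPM fed and 320 CPM fasted. It was found in 4 of 27, 6 of 31 and 3 of 31 fed cells and in 9 of 13 fasted cells. The fasted plate lay above all 3 fed plates, by 2.96 on the log2 scale (SE 0.58). As a background level, 1 of 191 other neurons, at a median of 26646 transcripts against 5320.5 in VLMC-like cells, held Angptl4.

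The class holds clusters 10, 12 and 23, the last with 2, 2 and 5 fed cells and 1 fasted cell. In cluster 10, led by Col15a1, Spp1 and Apod, Angptl4 was at 62.3, 117 and 23.9 CPM fed and 529 CPM fasted, found in 3 of 13, 5 of 14, 1 of 15 and 9 of 9 cells. In cluster 12, led by Igfbp2, Slc13a4 and Fmod, it was at 28.5, 0 and 14.5 CPM fed and 0 CPM fasted, where 3 cells were kept. Cluster 23 held 2 Angptl4 transcripts in its fed cells and 0 in its fasted cell. Unlike Pparg in tanycyte-like cells, the fasted Angptl4 was spread over all 9 cells of its cluster, with 23 transcripts among them.

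Cpt1a was at 61.9, 82.6 and 82.5 CPM in fed VLMC-like cells and 195 CPM in fasted ones, in 7 of 27, 8 of 31, 10 of 31 and 8 of 13 cells. In cluster 10 the fasted plate was on top, at 138 against 62.3, 69.9 and 95.5 CPM. In cluster 12 it stood at 292 CPM, from 3 cells only, against 71.3, 55.2 and 29.0 CPM, and the 1 fasted cell of cluster 23 held no Cpt1a. The log2 difference over the class was 1.33 (SE 0.59).

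Acadl (132, 112 and 107 CPM fed, 167 CPM fasted) gave a log2 difference of 0.52 (SE 0.56), below its standard error. Acadm (85.1, 112 and 102 CPM fed, 111 CPM fasted) lay inside the fed range. Ppara, the receptor, varied widely among the fed plates, with 7.74, 17.7 and 68.0 CPM fed and 27.8 CPM fasted. Plin2 was at 38.7, 23.6 and 24.3 CPM fed and 13.9 CPM fasted, below all fed plates on 1 plate of 13 cells. Pparg and Fabp7 were each found on fed plate 2 alone, at 5.90 CPM, and Pdk4 was at 7.74, 0 and 4.85 CPM fed and 0 CPM fasted. 5 members passed the filter and 1, Angptl4, passed the threshold, beside 1.06% of 5301 genes, while DESeq2 called 0 genes there. The choice of the members used this contrast too, so nothing is read from their count and it is no test of Angptl4. The pars tuberalis markers summed to 379, 64.9 and 146 CPM fed and 2003 CPM fasted in these cells, and the VLMC markers to 35441, 40785 and 22809 CPM fed and 30390 CPM fasted. Whether the former bear on the members was not tested.

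There were 90, 20 and 23 fed and 19 fasted endothelial-like cells. Angptl4 was at 23.7, 80.3 and 21.4 CPM fed and 135 CPM fasted, in 16 of 90, 5 of 20, 3 of 23 and 8 of 19 cells. The fasted plate lay above the fed plates, by 2.08 on the log2 scale (SE 0.61), with fed plate 2 closest to it. In cluster 6, the capillary-marked cluster led by Car4 and Slc40a1, Angptl4 was at 0, 85.8 and 25.1 CPM fed and 152 CPM fasted, in 7 of 17 fasted cells. Cluster 8, whose 57 cells were all from fed plate 1, led by Lrg1, Lcn2 and Cfb, held 28.3 CPM in 13 of 57 cells.

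Plin2, which coats lipid droplets, went the other way in endothelial-like cells. It was at 88.0, 60.2 and 69.4 CPM fed and 26.9 CPM fasted, below every fed plate, with a log2 difference of -1.48 (SE 0.67). Cluster 6 alone gave 84.0, 64.3 and 67.0 CPM fed and 30.4 CPM fasted. Cpt1a was at 153, 150 and 133 CPM fed and 193 CPM fasted (0.44, SE 0.42), the fasted plate again on top. Acadl (170, 161 and 117 CPM fed, 148 CPM fasted) lay inside the fed range, as did Acadm (70.4, 50.2 and 26.7 CPM fed, 40.4 CPM fasted) and Pparg (8.42, 0 and 10.7 CPM fed, 8.98 CPM fasted). Pdk4 was at 13.0, 10.03 and 21.4 CPM fed and 4.49 CPM fasted. 5 members passed the filter and 0 passed the threshold, beside 0.0154% of 6480 genes. Leaving out cluster 8, a choice that was not planned, gave Angptl4 a log2 difference of 2.33. The members were picked with this contrast known, so that value is no test of Angptl4. Fed plate 1 differed in this class by its VLMC marker sum too, at 4870 CPM against 421 and 411 CPM on fed plates 2 and 3 and 238 CPM fasted. The pars tuberalis sum was 277, 130 and 133 CPM fed and 1028 CPM fasted, and its part in these values was not tested.

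**Figure D4:**
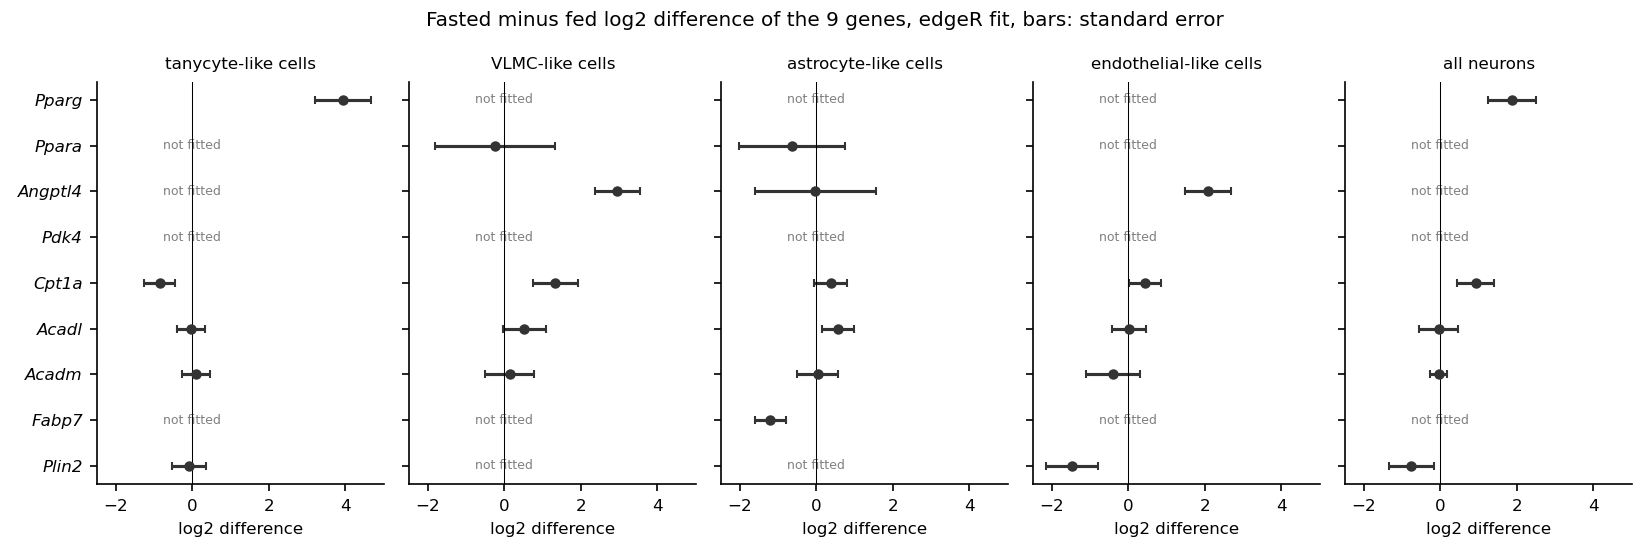
Fasted minus fed difference of each member that could be fitted, on the log2 scale (horizontal axis), with bars of 1 standard error, in 5 classes. Pparg in tanycyte-like cells (3.94), Angptl4 in VLMC-like cells (2.96) and Angptl4 in endothelial-like cells (2.08) lie farthest to the right, and Plin2 in endothelial-like cells (-1.48) and Fabp7 in astrocyte-like cells (-1.20) farthest to the left.

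Fed plates 2 and 3 held 28 and 37 astrocyte-like cells and the fasted plate 44, while fed plate 1 held 3 and gave no sum. Fabp7, the binding protein of radial glia and astrocytes, was at 217 and 274 CPM fed and 102 CPM fasted, in 14 of 28, 21 of 37 and 20 of 44 cells. The fasted plate was lower than both, by a log2 difference of -1.20 (SE 0.41). Oligodendrocyte precursor-like cells held Fabp7 in all 29 cells, 9, 12 and 8 a plate, at 398 and 265 CPM fed and 319 CPM fasted, where the fasted value lay between the fed ones. Oligodendrocyte-like cells, at 0 CPM on both fed plates, give the background.

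Pdk4, the kinase that shuts pyruvate dehydrogenase, was at 7.49 and 11.2 CPM in fed astrocyte-like cells and 34.0 CPM in fasted ones, in 1 of 28, 2 of 37 and 9 of 44 cells. Ppara was at 60.0 and 33.6 CPM fed and 27.8 CPM fasted (-0.64, SE 1.38), and Cpt1a at 105 and 157 CPM fed and 164 CPM fasted (0.37, SE 0.43). Neither difference of those last 2 exceeded its standard error. Acadl was at 142 and 118 CPM fed and 182 CPM fasted (0.57, SE 0.42) and Acadm at 60.0 and 83.9 CPM fed and 71.1 CPM fasted (0.03, SE 0.54). Angptl4 was at 0 and 61.6 CPM fed and 30.9 CPM fasted, so the fed plates themselves spanned the fasted value. Plin2 was at 0 and 28.0 CPM fed and 40.2 CPM fasted, and Pparg at 7.49 and 5.60 CPM fed and 0 CPM fasted. 6 members passed the filter and 0 the threshold, beside 0.601% of 5323 genes. The pars tuberalis sum was 225 and 269 CPM fed and 1113 CPM fasted, and the astrocyte sum 20025, 19272 and 20788 CPM.

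Neurons held little of most members. In AgRP-like neurons, the hunger-promoting cells of the arcuate nucleus, Cpt1a was at 5.09, 2.97 and 5.17 CPM fed and 6.17 CPM fasted, and in other neurons at 4.37, 4.43 and 4.81 CPM fed and 11.8 CPM fasted. Acadl separated the 2 kinds of neuron, at 42.5, 33.9 and 27.9 CPM in fed AgRP-like neurons against 4.37, 11.8 and 4.81 CPM in other neurons on the same plates. On the fasted plate the pair stood at 30.9 and 8.15 CPM, so the AgRP-like neurons were above the other neurons on all 4 plates. Acadm differed less, at 43.4 to 46.2 CPM in fed AgRP-like and 33.7 to 36.9 CPM in other fed neurons, and on the fasted plate its order was turned, at 35.8 and 42.6 CPM.

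Pparg in AgRP-like neurons was at 0.925, 1.19 and 1.03 CPM fed and 11.1 CPM fasted, in 2 of 83, 2 of 59, 1 of 29 and 5 of 23 cells. The fasted level came from 18 transcripts in those 5 cells, which held 30049 to 118636 transcripts each. Fasted AgRP-like neurons were deeper than fed ones, with a median of 65352 transcripts against 25949, 30397 and 33085. They also lay in another cluster: all 23 in cluster 18, led by Vgf, Agrp and Acvr1c, and the fed ones mostly in clusters 3 and 4. Other neurons had Pparg at 6.56, 1.48 and 3.37 CPM fed and 3.62 CPM fasted, the fasted plate inside the fed range. Over all neurons the log2 difference of Pparg was 1.88 (SE 0.63), that of Cpt1a 0.93 (SE 0.49), and that of Plin2 -0.76 (SE 0.58). 5 members passed the filter and 0 the threshold, beside 0.173% of 15061 genes. The pars tuberalis sum over all neurons was 578, 431 and 487 CPM fed and 1228 CPM fasted, and its part in these values was not tested.

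Some values came from classes with few fed cells. In pars tuberalis-like cells Cpt1a was at 66.7 CPM on fed plate 1 and 145 CPM fasted, and Pdk4 at 0 and 19.5 CPM. In pericyte-like cells Angptl4 was at 31.6 CPM on fed plate 3, in 1 of 10 cells, and 188 CPM fasted, in 3 of 9 cells. Acadl in the same pericyte-like cells was at 284 CPM fed and 62.6 CPM fasted, and Pdk4 at 94.8 and 0 CPM. With 1 fed plate each, these pairs have no replicate.

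The order of the classes on the fed plates differed by gene, among the 9 classes with at least 2 fed plates. For Cpt1a it ran from endothelial-like (133 to 153 CPM) and astrocyte-like (105 to 157 CPM) through tanycyte-like (62.2 to 120 CPM) and VLMC-like (61.9 to 82.6 CPM), then oligodendrocyte-like (33.5 to 73.1 CPM), oligodendrocyte precursor-like (47.8 to 53.1 CPM) and ependymal-like cells (21.0 to 28.1 CPM), to other and AgRP-like neurons (2.97 to 5.17 CPM). Neighbours in that order overlapped down to the precursor-like cells, below which the ependymal-like cells and, lower again, both kinds of neuron lay apart. Acadl was highest in endothelial-like (117 to 170 CPM), astrocyte-like (118 to 142 CPM), oligodendrocyte-like (122 to 134 CPM) and VLMC-like cells (107 to 132 CPM), which overlapped, and lowest in other neurons. Acadm spanned less, from 85.1 to 112 CPM in VLMC-like cells to 33.7 to 36.9 CPM in other neurons, with overlap between most neighbours but none between AgRP-like (43.4 to 46.2 CPM) and other neurons. Plin2 was highest in endothelial-like cells (60.2 to 88.0 CPM), above tanycyte-like (34.8 to 57.5 CPM) and VLMC-like cells (23.6 to 38.7 CPM), the first pair not overlapping. Ppara led in astrocyte-like (33.6 to 60.0 CPM) and VLMC-like cells (7.74 to 68.0 CPM), which overlapped, and was at 5.75 to 10.4 CPM in tanycyte-like cells. Angptl4 led in endothelial-like (21.4 to 80.3 CPM) and VLMC-like cells (19.4 to 64.9 CPM), again overlapping, and astrocyte-like cells (0 to 61.6 CPM) overlapped both. Pparg and Pdk4 were low in all fed classes, Pparg at most 10.7 CPM and Pdk4 at most 28.1 CPM in any of these classes and plates.

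Because depth differed between classes, each cell was also thinned to 1000 transcripts. Fabp7 was then found in 31.0% of oligodendrocyte precursor-like and 9.82% of astrocyte-like cells, against 0.52% of other neurons (100, 50.9 and 2.1% before thinning). Cpt1a was found in 15.1% of endothelial-like cells and 1.05% of other neurons (66.4 and 11.5% before). Angptl4 was in 7.84% of VLMC-like cells and 0% of other neurons (21.6 and 0.52% before). For these genes the order of these classes was the same at equal depth, but for other members and classes it changed. Acadl was in 58.8% of AgRP-like neurons and 42.9% of astrocyte-like cells before thinning, and in 3.61 and 9.82% after. Plin2 was in 27.8% of AgRP-like neurons and 14.7% of VLMC-like cells before, and in 0.515 and 4.90% after.

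When each class was set against all remaining cells of the same plates, counts of members describe the pattern but are no test, since the classes were clustered from the same cells. The remaining cells were summed, so deep cells weigh more, and AgRP-like and other neurons were deepest, with medians of 30223 and 26646 transcripts. Higher in a non-neuronal class is thus not higher than in each other class. Cpt1a was higher in VLMC-like cells (1.38), though its fed level there lay below the endothelial-like and astrocyte-like levels. In neurons all 9 members were lower and past the threshold, beside 58% of genes past it in either direction and 30.8% lower, from -5.31 for Fabp7 and -4.60 for Angptl4 to -0.62 for Acadm on the log2 scale. Astrocyte-like cells had 7 of 9 past it, all higher, led by Fabp7 (4.15) and Ppara (3.35), beside 33.7% of genes in either direction and 14.1% higher. VLMC-like cells had 5 higher, led by Angptl4 (3.55) and Ppara (3.16), and Fabp7 lower (-3.11), beside 27.3% of genes in either direction. Endothelial-like cells had Angptl4 (3.12), Cpt1a (2.34), Plin2 (1.71), Pdk4 (1.60) and Acadl (1.57) higher and Fabp7 (-2.06) lower, beside 45.1%. Tanycyte-like cells had only Plin2 (1.31) and Acadm (0.60) past it, beside 41.6%.

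The wider pathway was followed through 95 genes in 9 lists: PPAR partners, carnitine shuttle, mitochondrial and peroxisomal oxidation, ketone bodies, the pyruvate and malonyl-CoA switch, lipid droplets, fatty acid uptake and activation, and fatty acid synthesis. The lists were chosen with earlier results of these data known. Counts and adjusted p-values of list genes therefore rank them against all genes and are no independent test. Between fasted and fed tanycyte-like cells 5 of 74 list genes that could be fitted changed (edgeR, adjusted p under 0.05), 3 higher and 2 lower, beside 321 of all 10409 genes (3.08%), and the list median was -0.09 beside -0.02 over all genes. Besides Lpl, the acyl-CoA synthetase Acsl3 rose, from 178, 249 and 153 CPM to 557 CPM (1.52, SE 0.25, edgeR adjusted p = 1.5e-06). Rxra, the partner receptor of the PPARs, rose from 31.6, 60.2 and 55.7 CPM to 131 CPM (1.36, SE 0.35, edgeR adjusted p = 0.0093). The desaturase Fads1 fell, from 152, 172 and 224 CPM to 83.8 CPM (-1.14, SE 0.34, edgeR adjusted p = 0.031), and so did Dbi, the acyl-CoA binding protein, from 1144, 1081 and 852 CPM to 569 CPM (-0.85, SE 0.27, edgeR adjusted p = 0.049). The rise of Acsl3 also held in cluster 0 alone (1.46) and in cells holding Rax (1.47). Without fed plate 1 the calls of Lpl and Rxra were lost, and without fed plate 2 or fed plate 3 those of Fads1 and Dbi. In cells holding Xist and no Y-linked transcript only the call of Lpl remained.

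In the other 4 comparisons no list gene passed the threshold in edgeR or in DESeq2: 0 of 45 in VLMC-like, 0 of 57 in astrocyte-like, 0 of 49 in endothelial-like cells and 0 of 87 in neurons. At an unadjusted p under 0.05 there were 9, 6, 1 and 10, beside 684 of 5301, 398 of 5323, 410 of 6480 and 1792 of 15061 over all genes. The list medians were 0.17, -0.07, -0.25 and -0.07, beside -0.11, -0.03, -0.06 and -0.02 over all genes.

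**Figure D5:**
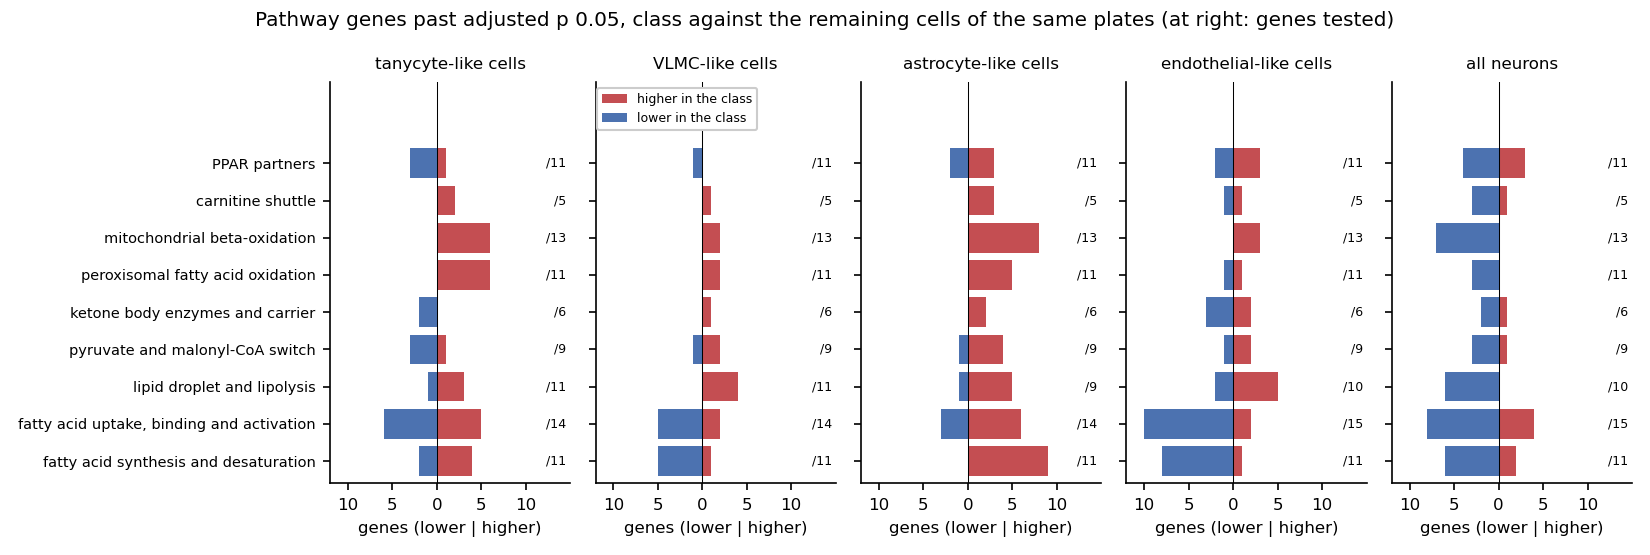
Number of genes of each of the 9 pathway lists that lay above (to the right) or below (to the left) the remaining cells past the edgeR threshold, in 5 classes. The remaining cells are summed, so deep cells weigh more. Astrocyte-like cells have 45 genes above and 7 below, beside 2148 above and 3001 below of all 15280 genes. Neurons have 12 above and 42 below, beside 4376 above and 4960 below of all 16093 genes.

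By class, the lists are described here by counts, beside those over all genes, since the classes come from the same cells. As for the members, deep cells, chiefly neurons, weigh more in the remaining cells of a non-neuronal class. Above is therefore not above each other class. Astrocyte-like cells had 45 of 89 list genes above the remaining cells and 7 below (median 1.02 beside -0.20 over all genes). Over all 15280 genes, 2148 were above and 3001 below. The list genes above included 9 of 11 synthesis genes, with the desaturase Fads2 at 4.44, and 8 of 13 genes of mitochondrial oxidation. Acsbg1, an acyl-CoA synthetase of brain, was at 6.93, the peroxisomal importer Abcd2 at 4.29 and the coactivator Ppargc1a at 2.63. Fabp3 was at 0 in them, at least 6.22-fold lower.

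Neurons were close to the reverse, with 12 of 91 list genes above and 42 below (median -0.54 beside -0.01). Over all 16093 genes, 4376 were above and 4960 below. None of 13 mitochondrial oxidation genes was above and 7 were below, among them Acaa2 at -2.78, Hadh at -2.68 and Eci1 at -2.32. The neuronal carnitine acyltransferase paralog Cpt1c, at 1.23, was one of the 12 above.

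Endothelial-like cells had 20 above and 28 below of 91 (median -0.23 beside -0.31). Over all 16169 genes, 2616 were above and 4684 below, so the share of list genes below was near that of all genes. Fabp4 (3.83) and the ketone and lactate carrier Slc16a1 (3.61) were above, while 8 of 11 synthesis genes were below, with Fads2 at -6.86. G0s2, a brake on lipolysis, was at 0 in them, at least 8.69-fold lower. In VLMC-like cells 15 were above and 12 below of 91 (median 0.12 beside -0.26), with Acsl1 at 2.73 and Lpl at 2.15, and Fabp5 at 0, at least 7.60-fold lower. Over all 15656 genes in that comparison, 1627 were above and 2647 below.

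Tanycyte-like cells had 28 above and 17 below of 91 (median 0.25 beside -0.09). Over all 15594 genes, 2638 were above and 3852 below. Of the oxidation genes, 6 of 13 mitochondrial and 6 of 11 peroxisomal ones were above and 0 below, while 7 and 5 did not pass, beside 2638 of all 15594 genes above. They were led by Acaa2 (2.59), Pex11a (2.00), Eci1 (1.92) and Crot (1.78). Lpl (2.95), Srebf1 (2.51), Dbi (2.47), the droplet protein Plin5 (2.01) and Rxra (1.33) were above as well. For Lpl, 67 transcripts of the class came from the 4 fasted cells with Pparg described above. The other fasted cells held 3 and the fed cells 54. The VLDL receptor gene Vldlr (-4.10) and the monoglyceride lipase Mgll (-2.29) were below.

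Genes with the pattern most like a member were found by the Pearson correlation of log2(CPM + 10) over 38 sums of a class and plate, which share plates and differ in depth. For Fabp7 they were Mir9-3hg (0.951), 2900037B21Rik (0.948) and Col11a2 (0.908). For Cpt1a they were Pttg1ip (0.842), Nfia (0.815) and Igf1r (0.812), for Angptl4 Plscr2 (0.840), Tram2 (0.823) and Aldh1a1 (0.795), and for Plin2 Stom (0.826), Sh3bgrl (0.826) and Cavin1 (0.760). Acadl was nearest to Dock1 (0.819), Wls (0.782) and Gm42906 (0.774), Ppara to Gli1 (0.797) and Acsf2 (0.754), and Acadm to Oaf (0.755), Emilin1 (0.747) and Fzd10 (0.731). Pparg and Pdk4 had lower correlations than the other 7 members: the best for Pparg was Nlrp5-ps at 0.645, Tdg at 0.611 and Cul1 at 0.601, and for Pdk4 Ttn at 0.622, H2afj at 0.613 and Cps1 at 0.595.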

How the data were processed

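Per the submitters' processing notes, reads were trimmed with Trim Galore 0.4.3 and aligned with STAR 2.5.3a to mm10. The authors deposited 1 table a plate of estimated counts, which are UMI counts corrected for collisions among 4096 possible UMIs, as read from the values (0 of 44237568 values were off a whole UMI by more than 1e-06). They were rounded to whole transcripts.

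Wells were clustered with scanpy 1.11.5 (2000 variable genes, 30 components, 10 neighbours, Leiden resolution 1.5, Leiden 2 as an alternative), without a doublet caller. The 4 plates use the same 384 barcodes, which name wells. Clusters other than neurons were named from at least 3 markers of a set. Neuron clusters met fewer than 3 markers of each non-neuronal set and held at least 40 neuron marker transcripts per 10000. That cutoff was set after seeing the data. AgRP-like neurons also met at least 3 AgRP neuron markers. Transcripts were summed by class and plate (at least 5 cells) and fitted across all genes with edgeR 4.0.16 (R 4.3.3, TMM, quasi-likelihood, Benjamini-Hochberg adjustment), with DESeq2 1.42.0 as an alternative. The lone fasted plate is assumed to vary like the fed plates. The SE of a log2 difference was worked back from the test, as its absolute value over the square root of the quasi-likelihood F statistic. The fits were tested on simulated counts. Shares of cells and zero-based folds (a floor of 3 counts a group) cover counting error only. The members and lists were chosen with earlier results of these data known. Named list genes are those past the threshold, at most 4 a list and comparison, and the 3 nearest genes a member. Genes that this rule names but the text leaves out are not reported here.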

Additional observations from a re-analysis of the deposited data

How the results depend on the processing

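The count of genes past the edgeR threshold between fasted and fed plates moved with most settings. With no low-count filter it was 176 (of 321) in tanycyte-like, 29 (of 56) in VLMC-like, 16 (of 32) in astrocyte-like and 12 (of 1) in endothelial-like cells and 401 (of 26) in neurons. DESeq2 called 51, 0, 1, 0 and 61 in the same order, none of them a member. DESeq2 gave an adjusted p to 7 of the 74 list genes in tanycyte-like cells. Restricted to Xist-positive cells without Y-linked transcripts, the counts were 12, 37, 13, 54 and 5. Leaving out 1 fed plate gave 161 (without fed plate 3) to 241 (without fed plate 2) in tanycyte-like, 6 (without fed plate 2) to 121 (without fed plate 3) in VLMC-like and 0 (without fed plate 2) to 58 (without fed plate 1) in endothelial-like cells and 99 (without fed plate 2) to 487 (without fed plate 1) in neurons, and the astrocyte-like cells could not be fitted this way. Cluster 0, cluster 5 and cells with Rax, the last chosen after seeing the data, gave 165, 156 and 169 in tanycyte-like cells. Cluster 10 of the VLMC-like cells gave 14, and endothelial-like cells without cluster 8 gave 52.

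The 5 list genes called in tanycyte-like cells became 3 with no filter, 2 with DESeq2, 1 in the Xist-positive cells, 2 in cluster 5 and 3 to 3 when a fed plate was left out. The 27 list genes of VLMC-like against remaining cells became 14 (without fed plate 3) to 23 when 1 plate was left out, and 32 with DESeq2 size factors. Lpl in tanycyte-like cells turned to -2.505 (SE 0.94) in cluster 0 and -1.90 (SE 0.77) in cells with Rax, each from few fasted transcripts. The 4 cells that hold most of its fasted transcripts are absent there. For the rest the cause was not tested. The members' fasted minus fed values ranged from 3.60 to 6.06 for Pparg in tanycyte-like cells, from 2.55 to 4.15 for Angptl4 in VLMC-like cells, from 1.68 upwards for Angptl4 in endothelial-like cells and from -1.21 to -0.90 for Fabp7 in astrocyte-like cells, each keeping its sign wherever it could be fitted. Pparg could not be fitted in cluster 0 or in cells with Rax, which lack the 4 fasted cells that hold 27 Pparg transcripts. The fits of Pparg held some or all of those 4 cells, so the kept sign says nothing on the other tanycyte-like cells. In cluster 0 the pooled Pparg level was 3.20 CPM fasted and 4.66 CPM fed. No paired analysis was possible because the fasted group is 1 plate, which shares a replicate number with at most 1 fed plate.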
